A study of Mus musculus with 6 samples.

Results

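The cytosolic heat shock proteins are the chaperones and co-chaperones that fold and refold proteins in the cytosol and nucleus, and here they are 10 genes: Hspa1a, Hspa1b, Hspa8, Hsph1, Dnajb1, Bag3, Hsp90aa1, Hsp90ab1, Hspb1 and their transcription factor Hsf1. They were taken by symbol, each matching 1 Ensembl gene of GENCODE M21, out of 55450 genes in the count tables. Their RNA was measured by sequencing long RNA from whole mouse brain in 3 libraries of TRMT1L KO animals and 3 of wild-type (WT) animals. TRMT1L is a relative of the tRNA methyltransferase TRMT1, and the labels give no strain, allele, sex or age. The series calls the libraries biological triplicates, and both groups are untreated as far as the labels say.

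HSP70 proteins bind exposed hydrophobic stretches of unfolded clients and release them in an ATP-driven cycle, which J-domain proteins such as DNAJB1 start and nucleotide exchange factors such as HSPH1 and BAG3 end. HSP90 proteins act later, on nearly folded clients such as kinases and steroid receptors, while small heat shock proteins such as HSPB1 hold unfolded proteins without using ATP. In unstressed cells HSF1 is held inactive, partly by these chaperones. When unfolded proteins accumulate, HSF1 forms trimers and binds heat shock elements, which are inverted repeats of the unit nGAAn, in front of the inducible genes. Neurons express constitutive HSC70 (Hspa8) and both HSP90 forms at high levels and are known for a weak induction of the inducible HSP70 genes.

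The promoters of the inducible genes are shown first, since such repeats are how HSF1 is known to reach them. The RefSeq promoter table (GRCm38.p6) holds windows of 300 bases, 250 before and 50 after a start site, for 6 of the 10 members: Hspa1a, Hspa1b, Hsph1, Dnajb1, Bag3 and Hspb1. Hspa8, Hsp90aa1, Hsp90ab1 and Hsf1 were not matched. The last 150 bases before the start are given for 4 of them, 5′ to 3′ on the strand of the gene, with pairs of units in capitals. They come from chr17:34972157-34972306 (minus strand) for Hspa1a, chr17:34959239-34959388 (minus) for Hspa1b, chr5:135887769-135887918 (plus) for Hspb1 and chr5:149636337-149636486 (minus) for Hsph1.
Hspa1a: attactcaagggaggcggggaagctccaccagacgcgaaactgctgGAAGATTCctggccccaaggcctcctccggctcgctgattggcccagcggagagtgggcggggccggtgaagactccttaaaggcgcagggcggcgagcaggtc
Hspa1b: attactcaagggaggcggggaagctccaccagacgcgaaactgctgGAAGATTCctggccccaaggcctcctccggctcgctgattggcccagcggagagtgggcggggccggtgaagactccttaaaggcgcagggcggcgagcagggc
Hspb1: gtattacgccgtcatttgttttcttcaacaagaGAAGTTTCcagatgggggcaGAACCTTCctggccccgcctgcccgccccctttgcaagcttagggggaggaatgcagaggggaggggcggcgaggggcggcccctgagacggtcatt
Hsph1: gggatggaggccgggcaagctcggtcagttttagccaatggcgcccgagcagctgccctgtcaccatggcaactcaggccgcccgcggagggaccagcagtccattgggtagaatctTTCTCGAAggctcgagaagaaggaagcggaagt

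The capitals mark matches to GAANNTTC or TTCNNGAA, the 2 ways in which a pair of inverted units can face each other; each motif is its own reverse complement, so a match covers both strands. Hspa1a and Hspa1b carry 1 such pair at bases -104 to -97 from the start. Their printed stretches are identical at 149 of 150 bases, and their whole windows at 296 of 300. In Hspb1 there are 2 pairs, at -117 to -110 and at -97 to -90. Hsph1, shown for the first of its 2 windows, has 1 pair before its start at -33 to -26. Downstream of that start, at bases 37 to 49, it also has a run of 3 units (GAANNTTCNNGAA on either strand, which overlaps both pair motifs). In Bag3 the only pair is at bases 43 to 50 after the start, and neither Dnajb1 window holds one. So 5 of the 6 matched members hold a pair, against 15.1% of all 32851 windows in the table, and the run of 3 units occurs in 0.603% of them. These are matches of letters in a short window, not measured binding.

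Depth was similar in all libraries, with 31201119 to 36145961 counts in genes. Trmt1l itself, the targeted gene, was at 34.4 ± 1.26 CPM in the WT libraries and at 2.87 ± 0.171 CPM in the KO libraries (mean and SD of 3 each; CPM is a gene's share of each library's counts, scaled to a fixed total with TMM factors). It thus differed by -3.58 on the log2 scale (edgeR adjusted p = 6.95e-10), on the side that the labels of all 6 libraries imply. Markers of neurons, astrocytes, oligodendrocytes, microglia, vessels, choroid plexus and blood were all detected, and of the 49 genes in these lists 0 were at 0 counts in all libraries. In whole tissue, fewer cells of a type and less RNA per cell cannot be told apart.

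Levels differed widely within the family. On the scale of CPM per kilobase of exon, Hsp90ab1, the constitutive HSP90, had the highest level at 349 ± 17.8 (SD, n = 6 libraries), followed by Hspa8 at 330.0 ± 37.4; the ranges of these neighbours overlapped. Hsp90aa1, the stress-responsive HSP90, came next at 205 ± 12.1. The HSP110 exchange factor Hsph1 followed at 30.7 ± 4.14, above 94.7% of all genes tested. Dnajb1 was at 9.21 ± 1.47, Hsf1 at 7.30 ± 0.408 and Bag3 at 4.91 ± 0.575. The lowest were the small heat shock protein Hspb1 at 3.31 ± 1.48, Hspa1a at 1.05 ± 0.234 and Hspa1b at 0.853 ± 0.378. Apart from Hsp90ab1 and Hspa8, the neighbours whose library ranges overlapped were Bag3 and Hspb1, and Hspa1a and Hspa1b. The inducible HSP70 genes together thus stood far below Hspa8 in every library.

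**Figure D1:**
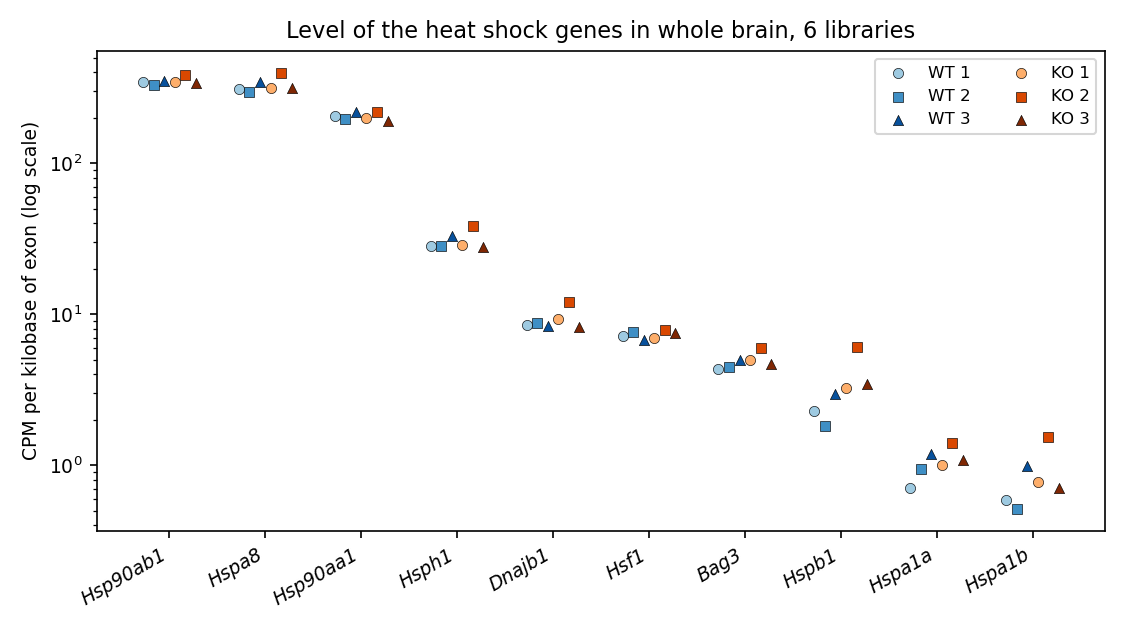
Level of each gene in CPM per kilobase of exon (log scale) in the 6 libraries, ordered by the mean over libraries. Hsp90ab1, Hspa8 and Hsp90aa1 lie between 189.7 and 398.7, Hspa1a and Hspa1b near 1, and KO library 2 (dark orange square) is the top point for most genes.

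Levels of members that share sequence with other genes are uncertain, because reads that map to several places were not counted; the order of Hspa8 and Hsp90ab1 is among what this can change. Hspa1a and Hspa1b are nearly the same sequence. Of the stretches of 75 bases in the Hspa1a transcript, 54.2% also occur in a transcript of another gene, mainly Hspa1b, and for Hspb1 47.3% also occur in its processed pseudogene Hsp25-ps1. The share was 53.1% for Hsp90aa1 and 40.9% for Hspa8, whose copies are processed pseudogenes (and, for Hspa8, snoRNAs within the gene). In Hsp90ab1 it was 0.736%, and it was 0 in Hsph1, Dnajb1, Bag3 and Hsf1. Comparisons of the same gene between libraries share this loss only as far as it was equal in each, which was not measured. Reads mapping to several places made up 4.61% to 5.16% of mapped reads in WT and 5.25% to 5.60% in KO.

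Between genotypes, none of the 10 heat shock genes passed the test. At an adjusted p under 0.05 edgeR's quasi-likelihood test called 0 of 10, as did limma-voom, and DESeq2 called 0 of the 5 to which it gave an adjusted p. Over all 21237 genes tested, 0.00942% were called. Without adjustment 1 member, Hspb1, had a p under 0.05 with a higher level in KO, where 4.54% of all genes did, and 0 members had one with a lower level. That count of 1 depended on the libraries: it was 4 without KO library 3 (Bag3, Dnajb1, Hspa1b and Hspb1) and 3 without WT library 3 (Hspa1a, Hspa1b and Hspb1). The share of all genes was not counted in those fits, so these rises cannot be read as particular to the members. The point estimates were above 0 for 9 of the 10 members, as for 50.05% of all genes, with a median log2 fold change of 0.15 in the members and 0.00013 in all genes tested. Adjusted p-values of the members ran from 0.576 to 0.938. In all 10 members KO library 2 was the highest KO library.

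Hspb1 (ENSMUSG00000004951.10, chromosome 5 from 135887919 to 135889563, plus strand; all coordinates GRCm38), whose protein is known as HSP25 in the mouse, had the largest difference of the family. Its level was 2.36, 1.88 and 3.07 CPM in WT libraries 1 to 3 and 3.37, 6.24 and 3.54 CPM in KO libraries 1 to 3, from 59 to 210 counts. Every KO library lay above every WT library, and KO library 2 was far above the rest. It was the only member whose groups did not overlap, in a set of genes where 7.46% had every KO library above every WT library. The log2 fold change was 0.84 (SE 0.247, 95% interval 0.30 to 1.38; edgeR adjusted p = 0.576). Without KO library 2 it was 0.50 (adjusted p = 0.657). Only in the fit without a filter on low counts did it pass (adjusted p = 8.84e-05), where 0.599% of genes were called higher in KO.

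Of the inducible HSP70 genes, Hspa1b (ENSMUSG00000090877.3, chromosome 17 from 34956436 to 34959238, minus strand) varied most. Its level was 1.65, 1.44 and 2.77 CPM in the WT libraries and 2.16, 4.34 and 1.99 CPM in the KO libraries. The groups overlapped: WT library 3 lay above KO libraries 1 and 3, and KO library 2 stood at 2.09 times the mean of those 2. The log2 fold change was 0.53 (SE 0.313, 95% interval -0.15 to 1.22; edgeR adjusted p = 0.705). It was 0.09 without KO library 2, 0.73 without KO library 3 and 0.87 without WT library 3.

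Hspa1a (ENSMUSG00000091971.3, chromosome 17 from 34969190 to 34972156, minus strand) codes for nearly the same protein from a neighbouring gene. Levels were 2.09, 2.81 and 3.50 CPM in WT and 2.99, 4.16 and 3.21 CPM in KO. WT library 3 was again the highest WT and KO library 2 the highest of all. Its log2 fold change was 0.31 (SE 0.196, 95% interval -0.12 to 0.74; edgeR adjusted p = 0.725); it was 0.13 without WT library 1 and 0.50 without WT library 3.

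The constitutive Hspa8 (ENSMUSG00000015656.17, chromosome 9 from 40800984 to 40810087, plus strand), whose product HSC70 also uncoats clathrin vesicles at synapses, was counted with 39764 to 57729 reads per library. Its level was 1337, 1268 and 1483 CPM in WT and 1357, 1715 and 1355 CPM in KO. KO libraries 1 and 3 lay inside the WT range and KO library 2 above it. The log2 fold change was 0.11 (SE 0.0847; edgeR adjusted p = 0.766), and without KO library 2 it was -0.0075. At these depths counting error is small, so the spread of Hspa8 is between libraries.

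Among the partners of HSP70, Hsph1 (ENSMUSG00000029657.15, chromosome 5 from 149614287 to 149636376, minus strand) had 207, 206 and 239 CPM in WT and 209, 278 and 201 CPM in KO. KO library 3 was the lowest of the 6 and KO library 2 the highest. Its estimate of 0.08 on the log2 scale (SE 0.105; edgeR adjusted p = 0.876) changed sign to -0.08 without KO library 2. Dnajb1 (ENSMUSG00000005483.10, chromosome 8 from 83608193 to 83612653, plus strand), the J-domain protein that delivers clients to HSP70, had 27.2, 27.9 and 26.7 CPM in WT. In KO it had 29.96, 38.7 and 26.5 CPM. The WT libraries were tightly grouped (SD 0.618) and the KO libraries were not (SD 6.32). Its log2 fold change was 0.22 (SE 0.111, 95% interval -0.03 to 0.46; edgeR adjusted p = 0.654), with 0.05 without KO library 2 and 0.33 without KO library 3.

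Bag3 (ENSMUSG00000030847.8, chromosome 7 from 128523616 to 128546981, plus strand), which steers HSP70 clients to autophagy, had 11.2, 11.5 and 12.8 CPM in WT and 12.8, 15.3 and 11.98 CPM in KO. The groups overlapped and KO library 2 was the highest. The log2 fold change was 0.18 (SE 0.103; edgeR adjusted p = 0.704), and 0.07 without KO library 2.

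The HSP90 genes were the steadiest chaperones of the family. Hsp90aa1 (ENSMUSG00000021270.13, chromosome 12 from 110690605 to 110702728, minus strand) had 808, 767 and 861 CPM in WT and 789, 859 and 746 CPM in KO. It was the only member highest in a WT library, WT library 3, with KO library 2 next. Its log2 fold change was -0.03 (SE 0.0567, 95% interval -0.15 to 0.10; edgeR adjusted p = 0.938), the only estimate below 0; it was 0.02 without WT library 3 and also without KO library 3, and -0.08 without KO library 2. Hsp90ab1 (ENSMUSG00000023944.14, chromosome 17 from 45567775 to 45573271, minus strand) had 1029, 992 and 1051 CPM in WT and 1029, 1147 and 1024 CPM in KO. That gave a log2 fold change of 0.06 (SE 0.0486, 95% interval -0.05 to 0.17; edgeR adjusted p = 0.792), and 0.0032 without KO library 2. For both HSP90 genes the highest library was at most 1.16 times the lowest.

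Hsf1 (ENSMUSG00000022556.11, chromosome 15 from 76477422 to 76501913, plus strand), which is controlled mostly at the protein level, varied as little. It had 50.8, 53.7 and 48.2 CPM in WT and 49.2, 55.6 and 53.5 CPM in KO, with the groups interleaved. The log2 fold change was 0.05 (SE 0.0623, 95% interval -0.09 to 0.19; edgeR adjusted p = 0.864). WT library 3, the highest WT library for 8 of the 10 members, was the lowest of the 6 for Hsf1. Without KO library 2 the estimate was 0.01.

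**Figure D2:**
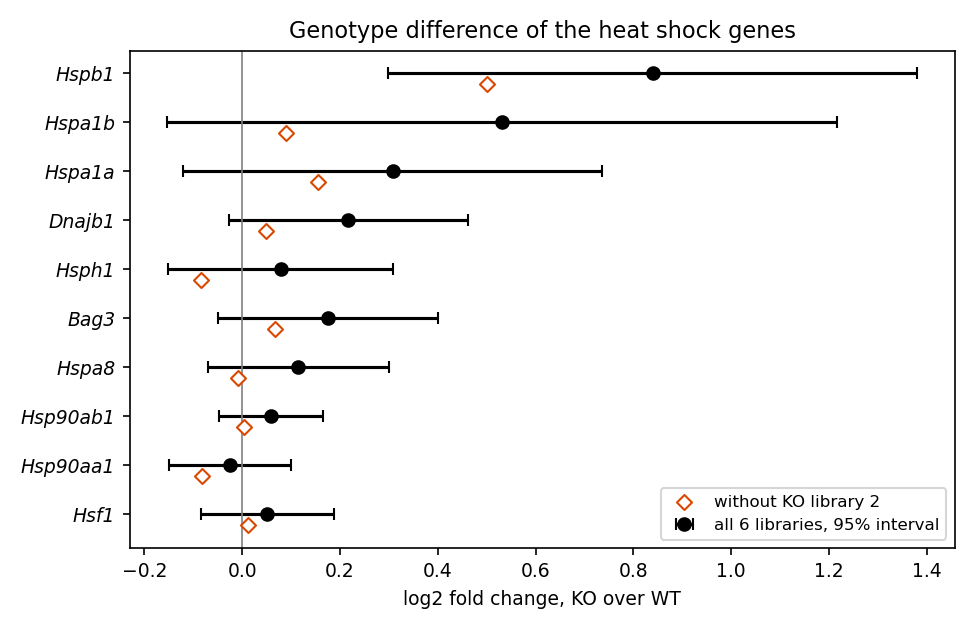
Log2 fold change of KO over WT for each gene with its 95% interval (black, 6 libraries), and the estimate without KO library 2 (open diamonds). The interval excludes 0 for Hspb1 alone before adjustment, and every diamond lies to the left of its point.

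The position of KO library 2 was common to the members. KO library 2 was the highest of the 6 for 9 of the 10 members, where 21.8% of all genes tested were highest in it, and it was the highest KO library for all 10 members, against 35.6% of all genes. Within WT, library 3 was the highest for 8 of 10 members, against 33.8% of all genes. KO library 2 stood above the mean of KO libraries 1 and 3 2.09-fold for Hspa1b and 1.81-fold for Hspb1. That ratio was 1.37 for Dnajb1, 1.36 for Hsph1, 1.34 for Hspa1a, 1.26 for Hspa8 and 1.23 for Bag3. It was lowest for Hsp90aa1 and Hsp90ab1 (both 1.12) and Hsf1 (1.08). WT library 3 stood above the mean of WT libraries 1 and 2 by 1.79-fold for Hspa1b, 1.45-fold for Hspb1 and 1.43-fold for Hspa1a, but lay below it for Dnajb1 (0.968) and Hsf1 (0.923). With 6 heat-inducible genes averaged (Hspa1a, Hspa1b, Hsph1, Dnajb1, Hspb1 and Bag3), the deviation from the mean of all libraries was -0.29, -0.30 and 0.08 on the log2 scale in WT libraries 1 to 3. In KO libraries 1 to 3 it was -0.0019, 0.56 and -0.05. With Hsp90aa1 added, which was highest in WT library 3, KO library 2 was at 0.49.

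KO library 2 did not stand apart in depth, with 34221660 counts in genes. Its TMM factor was the lowest of the 6, at 0.984 against 0.997 to 1.008 in the others. Among KO libraries it had the fewest reads mapping to several places (5.25% of mapped reads, 5.59% and 5.60% in the other 2). Such library measures did separate the genotypes, as Hspb1 did: reads mapping to several places were 4.61% to 5.16% in WT and 5.25% to 5.60% in KO. Reads in several genes were 0.784% to 0.808% and 0.863% to 0.909%, and reads in no gene 50.3% to 52.2% and 48.6% to 49.8%. Their part in the differences was not tested. Over all genes KO library 2 differed from the other KO libraries by a chi-square per degree of freedom of 7.02 and 8.69, against 5.56 between those 2 libraries and 4.08 to 5.51 among WT libraries. It had the fewest genes with a count, 29963 against 30513 to 31082. Immediate early genes, which respond to neuronal activity and handling, summed to 375, 361 and 306 CPM in WT and 485, 418 and 231 CPM in KO, so they were highest in KO library 1. Endothelial and mural markers summed to 385 to 402 CPM in WT and 367 to 404 CPM in KO, with KO library 2 the lowest of the 6. Astrocyte markers summed to 4572 to 4806 CPM in WT and 4444 to 4635 CPM in KO, and KO library 2 lay between, at 4596 CPM. Blood markers summed to 109 to 149 CPM in WT and to 247 and 181 CPM in KO libraries 1 and 3, and KO library 2 was the lowest of the 6 at 98.3 CPM. Microglia markers were also lowest there (197 CPM; 206 to 254 CPM in WT). Choroid plexus markers ran from 315 to 370 CPM in WT and from 373 to 447 CPM in KO, with 436 CPM in KO library 2; every KO library lay above every WT library, as for Hspb1. The part of choroid plexus RNA in the Hspb1 difference was not tested. Oligodendrocyte markers ran from 4160 to 4591 CPM in WT and 3591 to 4292 CPM in KO, and neuron markers from 6295 to 6554 CPM and 6145 to 6502 CPM.

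The rest of the folding network was read from 11 lists with 81 genes, of which 79 were tested (Hspa1l and Hspb7 had too few counts). In edgeR's test 0 had an adjusted p under 0.05, as in limma-voom, and DESeq2 called 0 but gave 28 of them no adjusted p. Without adjustment 10 of the 79 (12.7%) had a p under 0.05 with a higher level in KO and 0 with a lower level, beside the 4.54% and 3.38% of all genes. Estimates were above 0 for 56 of 79 genes (70.89%), beside 50.05% of all genes tested. The median log2 fold change was 0.06, beside 0.00013 in all genes tested.

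By list, the relatives of HSP70 and HSP110 had 3 of 7 estimates above 0 and J-domain co-chaperones 6 of 11. HSP90 co-chaperones had 10 of 13, other HSP70 co-chaperones 5 of 8, TRiC chaperonin subunits 6 of 8 and prefoldin subunits 4 of 6. The other small heat shock proteins had 4 of 5, the other heat shock factors and regulators 2 of 3, and mitochondrial chaperones 4 of 4. The chaperones of the endoplasmic reticulum had 8 of 10, with the largest median, 0.23. Polyubiquitin genes, Sqstm1 and Vcp had 4 of 4.

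The 10 genes of the network with the smallest p-values had values as follows, each with an edgeR adjusted p between 0.576 and 0.622. Hspa2, an HSP70 best known from the testis, had 25.4, 24.4 and 26.5 CPM in WT and 29.2, 29.9 and 29.4 CPM in KO (log2 fold change 0.21, SE 0.0587). All KO libraries lay above all WT libraries and close together. Bag6, a chaperone of membrane protein precursors, averaged 156 ± 2.97 CPM in the WT libraries and 171 ± 2.06 CPM in the KO libraries (SD, n = 3; log2 fold change 0.14, SE 0.0409). Hspbp1, an exchange factor of HSP70, was at 24.96 ± 1.80 and 28.1 ± 0.316 CPM (0.17, SE 0.0655). Among HSP90 partners, the immunophilins Fkbp8 (152 ± 6.46 and 165 ± 3.12 CPM; 0.12) and Fkbp4 (80.4 ± 3.36 and 91.2 ± 10.4 CPM; 0.18) were named. Fkbp4, a partner of steroid receptors, had its highest value in KO library 2, 103 CPM. Prefoldin subunits Pfdn6 and Pfdn5, which pass actin and tubulin to TRiC, had log2 fold changes of 0.19 and 0.17. The autophagy receptor Sqstm1 had 0.09.

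The remaining pair belonged to the endoplasmic reticulum. Sdf2l1 had 2.58, 2.71 and 3.43 CPM in WT and 3.19, 9.03 and 3.51 CPM in KO, and Hyou1, the HSP110 of that compartment, 117 ± 0.926 and 138 ± 23.3 CPM. Summed over the 10 endoplasmic reticulum chaperones, KO library 2 had 1895 CPM, against 1325 and 1407 CPM in the other KO libraries and 1300 to 1485 CPM in WT. KO library 2 was therefore 1.39 times the mean of the other KO libraries for these genes, while mitochondrial chaperones (0.996) and TRiC (1.02) were level with them. That ratio was 1.13 for the other small heat shock proteins and 1.10 for HSP90 co-chaperones.

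**Figure D3:**
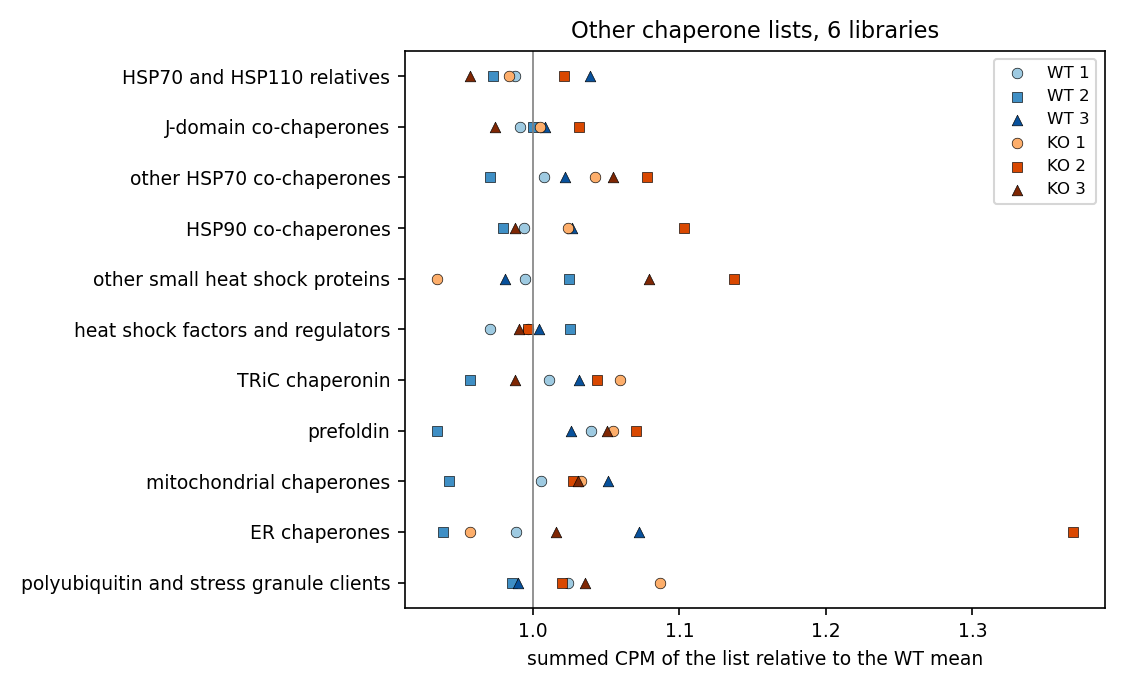
Summed CPM of each chaperone list in each library, relative to the WT mean of that list. KO library 2 (orange squares) stands apart at the right for the endoplasmic reticulum chaperones and, by less, for HSP90 co-chaperones, and is not apart for TRiC or the mitochondrial chaperones. It is also the highest for the other small heat shock proteins, with KO library 3 next.

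Genes with a pattern like the mean of the 6 heat-inducible members were ranked by the root mean square difference of centred log2 CPM over the 6 libraries, among 12717 genes with a mean of at least 5 CPM. The 5 nearest were Fzd2, a Wnt receptor (difference 0.0830), Kcnf1, a modifier subunit of potassium channels (0.0853), Gjb6, a connexin of astrocytes (0.0854), Dusp4, a MAP kinase phosphatase (0.0862), and Homer1, a postsynaptic scaffold (0.0925). Homer1 had 132, 140 and 188 CPM in WT and 152, 226 and 146 CPM in KO. Gjb6 had 34.2, 33.4 and 41.8 CPM in WT and 38.5, 57.3 and 33.7 CPM in KO. In both, KO library 2 was the highest and WT library 3 the next, as in Hspa1b; the genes were picked for this likeness. By edgeR's test 0 of the 5 were called between genotypes (edgeR adjusted p between 0.599 and 0.797).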

How the data were processed

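The authors deposited read counts per gene for each library, in the layout of STAR's gene counts. Cutadapt 1.9.1 and STAR 2.7.0f are named, per the submitters' processing notes, with no role given; RNA over 200 bp was selected and TruSeq total RNA libraries were made, per the labels' protocols. The genome build is not given in the sources used here; all 55450 gene IDs matched GENCODE M21 (GRCm38), which gave names, positions and exon lengths.

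The column for the strand opposite to the first read was used (94.6% to 94.8% of stranded counts). The 4 rows that name no gene, with 57.7% to 60.2% of reads, stayed out. Genes were filtered with filterByExpr, scaled with TMM and tested with edgeR 4.0.16 (quasi-likelihood, R 4.3.3), KO against WT over all 6 libraries, with Benjamini-Hochberg adjustment over 21237 genes. SE is the log2 fold change over the root of F. The log2 CPM had a prior count of 2. DESeq2 1.42.0 and limma-voom (limma 3.58.1) were alternatives. The test was checked on simulated data. It misses most differences as small as the estimates of most members, so a p above the threshold does not show that a member was unchanged. Within a group, libraries differed by more than sampling noise (chi-square per degree of freedom 4.08 to 8.69). Nothing in the labels gives the animals, so p-values measure the spread between these libraries.

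The members and gene lists were chosen with earlier results of these data known. Named are all members, Trmt1l, the 10 network genes of smallest p and the 5 genes of most like pattern.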

Additional observations from a re-analysis of the deposited data

How the results depend on the processing

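In all 16 alternatives no member passed the threshold, except Hspb1 without a filter on low counts. Without that filter 298 of 37245 genes were called, 223 higher and 75 lower. Among them were 1 member and 6 of 81 network genes, all 6 from the endoplasmic reticulum (Calr, Dnajb11, Hspa5, Hyou1, Pdia4 and Sdf2l1). For Trmt1l too edgeR's adjusted p was far smaller there, 2.57e-270 beside 6.95e-10 in the reported fit. Its log2 fold change was -3.58 in both. The summed endoplasmic reticulum chaperones stood out in KO library 2 alone, at 1.39 times the mean of its group's other libraries. Those calls were not tested without KO library 2. The DESeq2 Wald test called 26 genes, 18 higher and 8 lower, none of them a member or network gene, and gave 5 members (Hspb1 among them) and 28 network genes no adjusted p. It shared 0 calls with edgeR and gave Trmt1l itself no adjusted p, so its lack of member calls says little. With the replicate block 4 genes were called, 2 of them higher, and no member; same-numbered libraries deviated together at r = 0.0402, -0.0314 and -0.0581, so they are taken to share only a number. Not every library correlated best with its own number.

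Leaving out 1 library at a time gave 2 to 5 genes (5 without KO library 3), 0 to 2 higher and 2 to 3 lower. Log2 fold changes then ran from -0.0075 to 0.18 for Hspa8, from -0.0833 to 0.165 for Hsph1 and from -0.0816 to 0.0219 for Hsp90aa1. Hspa8 and Hsph1 changed sign without KO library 2, and Hsp90aa1 without WT library 3 or KO library 3. Without KO library 2 and WT library 3 together, a choice made after seeing the data, 8 genes were called, 6 higher, and no member. Hsph1 was then at -0.0054 and Hsf1 at -0.0222. Hspa1a, Hspa1b, Dnajb1, Bag3, Hsp90ab1 and Hspb1 kept their sign in all 16. Hspa1a, Hspa1b and Hspb1, with 45 to 210 counts per library, are limited by depth more than the other members. Members with an unadjusted p under 0.05 numbered 1 in the reported fit, 2 with DESeq2 or the replicate block (Dnajb1 and Hspb1), and 4 without the filter (Dnajb1, Hspa1b, Hspa8 and Hspb1). The cause of these changes was not tested, and the share of all genes with such a p was counted for the reported fit alone.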

Other observations

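Within the HSP90 pair, Hsp90aa1 made up 44.0%, 43.6% and 45.0% of the summed counts of Hsp90aa1 and Hsp90ab1 in the WT libraries. The KO libraries, in the same order of replicates, had 43.4%, 42.8% and 42.1%. Every KO library lay below every WT library, by 1.42 percentage points between the means. This share was chosen after its values were seen and was not tested. Stretches shared with other genes made up 53.1% of Hsp90aa1 and 0.736% of Hsp90ab1. The part of reads lost to several places in this difference was not tested. Hspa1b made up 44.1%, 33.8% and 44.2% of the counts of the inducible HSP70 pair in WT and 41.9%, 51.1% and 38.3% in KO, with the groups overlapping and KO library 2 the highest.

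The processed pseudogenes that share stretches with the members held few counts. The 8 of Hspa8 had 0 to 393 counts each, the 3 of Hsp90aa1 1 to 190, and Hsp25-ps1 of Hspb1 0 to 4. Gm15459, the Hspa8 copy that shares most with it, had 389, 322 and 362 counts in WT and 382, 393 and 296 in KO. Hspa1l, the testis-type HSP70 gene beside Hspa1a, had 7 to 10 counts in each library.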
